A study of Mus musculus with 24 samples.

Results

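The 9 genes described here code for the machinery that puts peptides on MHC class I molecules: the heavy chains H2-K1 and H2-D1, the light chain B2m, the peptide transporter subunits Tap1 and Tap2, the loading chaperone Tapbp, the transactivator Nlrc5 and the immunoproteasome subunits Psmb8 and Psmb9. They were chosen by gene symbol, as 9 of the 51912 genes in the deposited count table, and all 9 were among the 17287 genes that passed a filter on low counts. The RNA came from whole ears of mice on a C57BL/6 background, and libraries were made from its polyA fraction. CARD14E138A ears came from a knock-in strain in which tamoxifen, acting through CreERT2, removes a stop cassette flanked by lox sites, so that the gene of the keratinocyte scaffold protein CARD14 is expressed with the E138A change from its own locus. Wt ears carried the normal gene, and both genotypes were given tamoxifen into the abdominal cavity daily for 3 days. The groups, each of 6 libraries, were CARD14E138A and Wt ears at day 5, counted from the first injection, and CARD14E138A and Wt ears at 1 month. The cell type that drives CreERT2, whether the Wt mice carried CreERT2, and the age and sex of the mice are not given in the labels. Nothing in the labels says that the samples of a group came from separate animals, so each p-value refers to spread among samples within groups, which may be technical. In the main edgeR tests that spread was estimated jointly over the 4 groups, 24 libraries in all.

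Class I molecules are carried by nearly all nucleated cells and show peptides from inside the cell to CD8 T cells and natural killer cells. The proteasome cuts proteins into peptides, the TAP transporter moves these into the endoplasmic reticulum, tapasin holds empty class I molecules at the transporter, and a heavy chain with its light chain then carries the peptide to the cell surface. Interferons and NF-κB are known to raise the transcription of these genes, and interferon-γ also exchanges catalytic subunits of the standard proteasome for those of the immunoproteasome. NF-κB is the pathway that this form of CARD14 was described as keeping active.

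The libraries held 16803680 to 18852963 counts in CARD14E138A and 15661515 to 16998900 in Wt ears at day 5, and 20608274 to 23022149 in CARD14E138A and 19255028 to 23904976 in Wt ears at 1 month. Card14 itself averaged 46.2 ± 11.1 CPM in CARD14E138A and 45.5 ± 7.67 CPM in Wt ears at day 5, and 14.4 ± 5.63 CPM in CARD14E138A and 40.4 ± 7.07 CPM in Wt ears at 1 month (SD, n = 6; CPM is counts per 1e6 counts after scaling). It did not pass the test at day 5 (0.02 ± 0.19 on the log2 scale, edgeR adjusted p = 0.943) and fell at 1 month (-1.49 ± 0.20, adjusted p = 1.58e-06). A count per gene does not show the point change, so it does not check the genotype. Summed markers of keratinocytes, fibroblasts, cartilage and skeletal muscle were present in every library, as whole ear would have. The 1-month libraries differed in how their values went with gene GC content. For each library, the deviation of 12061 protein-coding genes from their medians was correlated with gene GC content, a description across genes. Spearman's rho was 0.35 to 0.64 in CARD14E138A libraries 1, 2 and 6 and Wt libraries 2, 3, 4 and 5 of 1 month. It was below 0 in the other 3 CARD14E138A and 2 Wt libraries of 1 month, at -0.51 to -0.09. In day 5 libraries it lay between -0.37 and 0.24. The 1-month results are therefore given over all 12 libraries and within each kind, above or below 0. The division at 0 does not match the libraries closely, since Wt library 6, at -0.09, lay within the range of day 5, while the 3 CARD14E138A libraries below 0 stood at -0.51 to -0.41. The same correlation with exon length was -0.18 to 0.13 in CARD14E138A and 0.07 to 0.32 in Wt libraries of day 5, so it differed with genotype there. At 1 month it was -0.43 to -0.24 in the libraries above 0 and 0.10 to 0.37 in those below 0. The part of this relation with length in the results was not tested.

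**Figure D1:**
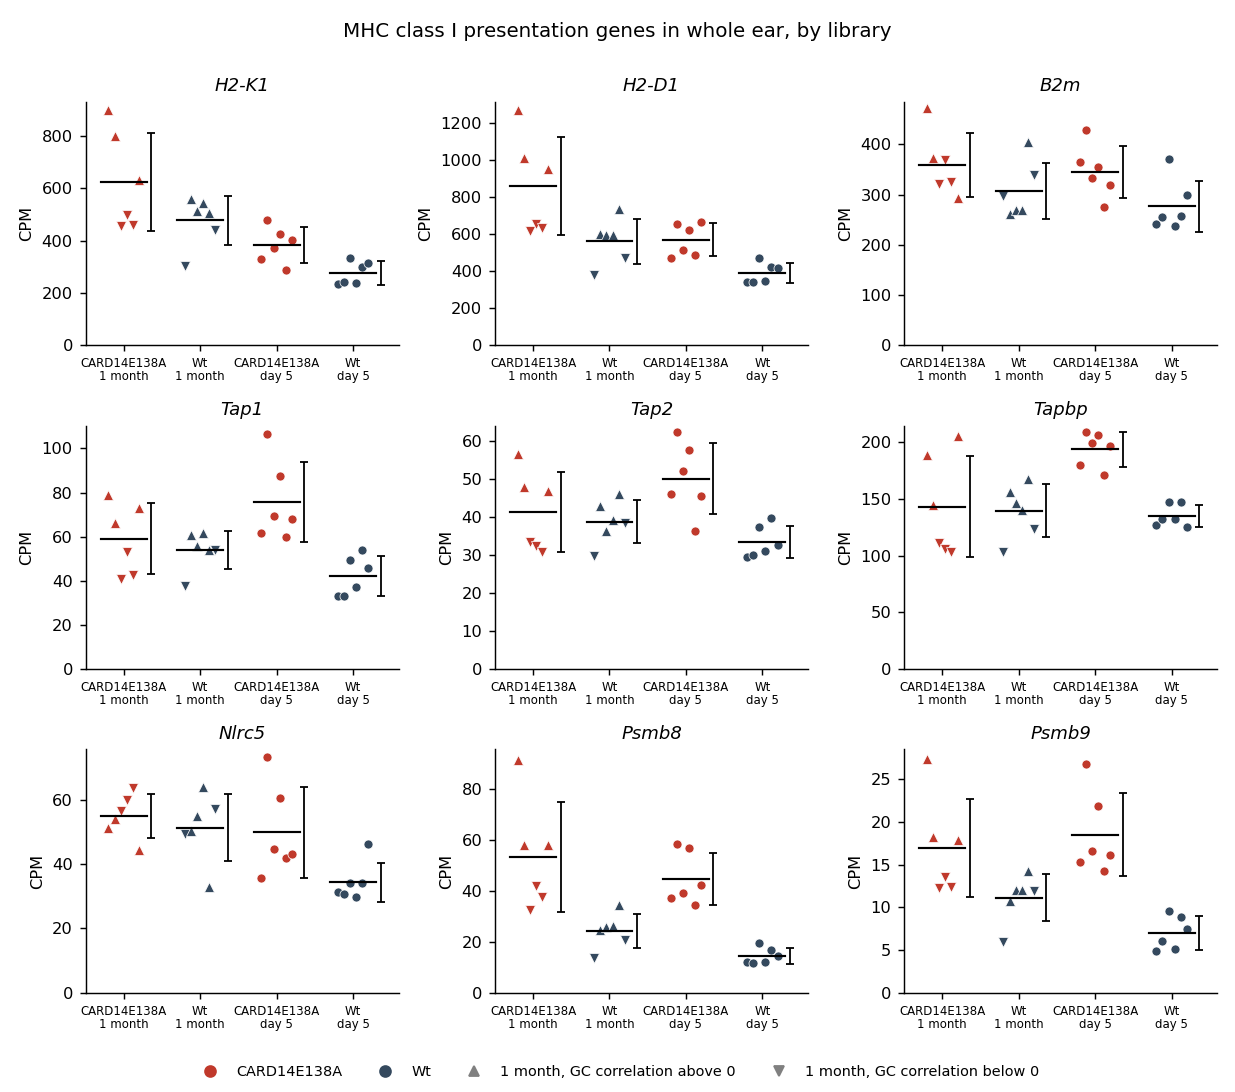
Level of each of the 9 genes in every library, in CPM from 0, with CARD14E138A left of Wt at each time. The 3 rows of panels hold the 9 genes, a point is 1 library, the line is the mean and the bar beside it the SD of 6 libraries, and triangles at 1 month point up or down for a GC correlation above or below 0. At day 5 all 6 CARD14E138A libraries lie above all 6 Wt libraries for H2-D1, Tap1, Tapbp, Psmb8 and Psmb9, whereas at 1 month the groups overlap for all 9 genes.

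The 9 genes differed widely in level. Per kilobase of the principal transcript, B2m was highest at 402 ± 60.0 CPM per kb in CARD14E138A and 322 ± 59.1 CPM per kb in Wt ears at day 5 (SD, n = 6). The heavy chains followed, H2-D1 with 271 ± 42.4 and H2-K1 with 236 ± 41.9 CPM per kb in CARD14E138A ears, against 185 ± 25.4 and 171 ± 27.4 CPM per kb in Wt ears, and these neighbours differed by less than their SDs. Tapbp came next with 66.8 ± 5.25 CPM per kb in CARD14E138A and 46.7 ± 3.36 CPM per kb in Wt ears. The 2 transporter subunits, the 2 immunoproteasome subunits and Nlrc5 lay between 6.57 and 27.5 CPM per kb in CARD14E138A and between 4.53 and 14.3 CPM per kb in Wt ears at day 5. In Wt ears the order among these was Tap1, Tap2, Psmb8, Psmb9 and Nlrc5, where Tap2 and Psmb8 (9.68 ± 1.23 and 8.91 ± 1.91 CPM per kb) and Psmb9 and Nlrc5 (5.18 ± 1.43 and 4.53 ± 0.801 CPM per kb) differed by less than their SDs. In CARD14E138A ears Psmb8, at 27.5 ± 6.32 CPM per kb, stood above Tap1 at 25.6 ± 6.15 CPM per kb, a gap smaller than either SD, and Nlrc5 was lowest of the 9 in every group. At 1 month the heavy chains lay closer to B2m, with 408 (H2-D1), 386 (H2-K1) and 418 (B2m) CPM per kb in CARD14E138A ears and 267, 295 and 356 CPM per kb in Wt ears.

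Of the 9 genes, 8 rose in CARD14E138A ears at day 5, and none fell (quasi-likelihood test in edgeR, with p-values adjusted over all genes tested and a threshold of 0.05). Of all 17287 genes tested, 20.7% were called higher and 20.2% lower in this comparison. At unadjusted p below 0.05 also none of the 9 was lower, and DESeq2 called 8 higher and 0 lower, beside 18.2% and 16.8% of the genes it tested. The median log2 fold change of the 9 genes was 0.55, beside -0.02 over all genes tested. The gene that did not pass was B2m. In whole tissue, more or fewer cells of a type and more or less RNA per cell cannot be told apart. At 1 month 3 of the 9 genes passed, H2-D1, Psmb8 and Psmb9, all higher, while 25.5% of all genes were called higher and 21.5% lower. None of the 9 was lower at 1 month either, at unadjusted p below 0.05 or by DESeq2, which called 3 higher, beside 19.6% of its genes higher and 18.3% lower. At 1 month no gene of the 9 had all CARD14E138A libraries above all Wt libraries, beside 12.2% of all genes. The median log2 fold change at 1 month was 0.23, beside 0.05 over all genes.

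**Figure D2:**
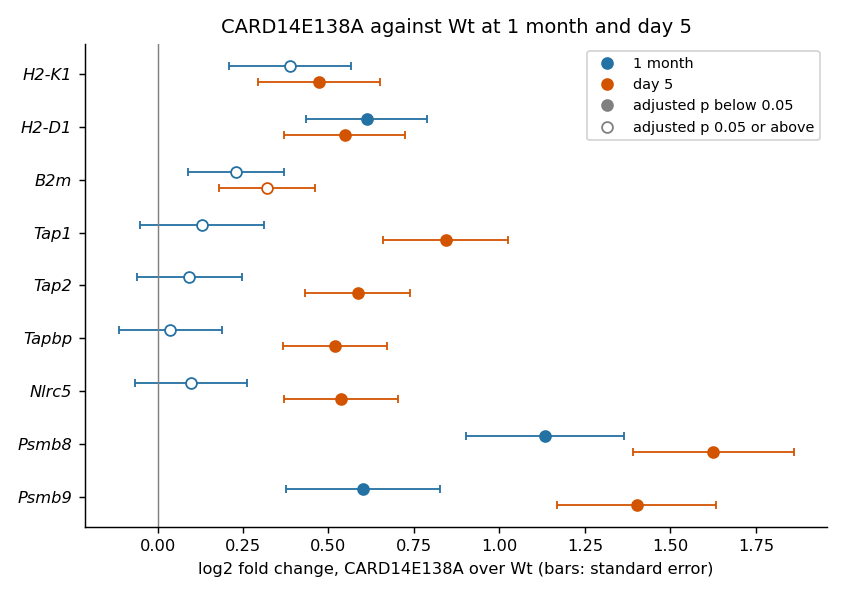
Log2 fold change of CARD14E138A over Wt for each of the 9 genes, with the standard error, at 1 month (blue, upper of each pair) and day 5 (orange). Filled points have an adjusted p below 0.05: 8 of 9 at day 5, and H2-D1, Psmb8 and Psmb9 at 1 month.

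The heavy chains bind the peptide and are what T-cell receptors read. H2-D1 (ENSMUSG00000073411, GRCm38 chr17:35262730-35267499) had 472, 654, 512, 624, 484 and 667 CPM in the CARD14E138A libraries of day 5, against 343, 341, 469, 348, 421 and 416 CPM in the Wt libraries. The lowest CARD14E138A library was just above the highest Wt library, so the groups did not overlap. H2-D1 rose by 0.55 ± 0.18 on the log2 scale (SE, edgeR adjusted p = 0.0158). At day 5 the 6 CARD14E138A libraries stood above all 6 Wt libraries for 5 of the 9 genes, beside 17.9% of all genes tested. At 1 month H2-D1 had 619, 805 and 1269 CPM as lowest, median and highest value in CARD14E138A ears, and 379.8, 593 and 734 CPM in Wt ears. It rose again, by 0.61 ± 0.18 (edgeR adjusted p = 0.00614), with 3 CARD14E138A libraries above all Wt libraries. Those were libraries 1, 2 and 6, which had a GC correlation above 0. In a fit of the 1-month libraries alone H2-D1 did not pass.

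H2-K1 (ENSMUSG00000061232, chr17:33996017-34000347) had 331, 478, 371, 425, 289 and 403 CPM in CARD14E138A and 233, 240.3, 332, 237, 299.7 and 314 CPM in Wt ears at day 5. Here the groups overlapped, with 4 CARD14E138A libraries above every Wt library. H2-K1 passed the test at day 5 by 0.47 ± 0.18 (edgeR adjusted p = 0.0375), but the call was lost when any 1 of 7 libraries was left out (CARD14E138A 2, 3, 4 or 6, or Wt 1, 2 or 4), with adjusted p up to 0.123. It was also lost without a filter on low counts (adjusted p = 0.0524) and with same-numbered libraries as a replicate block (adjusted p = 0.0699). At 1 month it lay at 457, 566 and 899 CPM in CARD14E138A and 304, 509.7 and 559 CPM in Wt ears, a log2 fold change of 0.39 ± 0.18 that did not pass (edgeR adjusted p = 0.0786). Without CARD14E138A library 5 of 1 month it passed (0.46 ± 0.18, edgeR adjusted p = 0.0402).

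Reads of class I heavy chains can be split among near-identical genes. Of the 75-base windows in the transcripts of H2-K1 and H2-D1, 3.10% and 5.56% also occurred in other genes, and both genes had fractional counts in all 24 libraries, so their own values carry that uncertainty. Counts were therefore also summed over 18 class I heavy chain rows, which removes the split among these rows, but not that with genes outside them, such as Gm7030 for H2-D1 and A930015D03Rik for H2-T22. The sum lay at 965 to 1404 CPM in CARD14E138A and 718 to 1008 CPM in Wt ears at day 5, a log2 difference of 0.50 ± 0.17 (SE, no test was made). At 1 month it lay at 1287 to 2562 CPM in CARD14E138A and 864 to 1532 CPM in Wt ears, a log2 difference of 0.43 ± 0.17. H2-K1 and H2-D1 together held 83.4 to 85.5% of the sum in CARD14E138A libraries of 1 month and 77.1 to 81.0% in Wt libraries of 1 month, with no overlap. At day 5 their share was 77.9 to 82.8% in CARD14E138A and 77.7 to 81.0% in Wt libraries.

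B2m (ENSMUSG00000060802, chr2:122147686-122153083), the invariant light chain without which heavy chains do not reach the surface, is the only one of the 9 genes outside chr17 apart from Nlrc5. It had 366, 428, 332, 355, 274 and 319 CPM in CARD14E138A and 241, 256, 371, 238, 258 and 298 CPM in Wt ears at day 5. One Wt library, number 3, was higher than all but 1 of the CARD14E138A libraries. The log2 fold change was 0.32 ± 0.14 and did not pass (edgeR adjusted p = 0.0726). It passed without CARD14E138A library 5 (0.38 ± 0.14, edgeR adjusted p = 0.0425) or Wt library 3 (0.41 ± 0.14, adjusted p = 0.0193), and in a fit of the day 5 libraries alone (0.33 ± 0.12, adjusted p = 0.0258). At 1 month B2m lay at 293 to 473 CPM in CARD14E138A and 261 to 404 CPM in Wt ears (0.23 ± 0.14, edgeR adjusted p = 0.191).

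The 250 bases before and 50 after the start of a gene were taken from RefSeq (GRCm38.p6), where 7 of the 9 genes had an entry. Class I promoters are known for an enhancer with a κB site, an interferon-stimulated response element and a module of X and Y boxes to which the NLRC5 complex is recruited. The 4 windows below are shown because H2-K1, H2-D1 and B2m carry the X and Y letters at the same spacing, and H2-K1 and H2-D1 the κB letters as well, and because Tap1 shares its window with Psmb9. Capitals mark, on either strand, the κB letters GGGATTCCC, the interferon regulatory factor letters AANNGAAA, and TGACG followed by ATTGG after 20 bases (in Tap1, each TGACG or ATTGG alone).
H2-K1: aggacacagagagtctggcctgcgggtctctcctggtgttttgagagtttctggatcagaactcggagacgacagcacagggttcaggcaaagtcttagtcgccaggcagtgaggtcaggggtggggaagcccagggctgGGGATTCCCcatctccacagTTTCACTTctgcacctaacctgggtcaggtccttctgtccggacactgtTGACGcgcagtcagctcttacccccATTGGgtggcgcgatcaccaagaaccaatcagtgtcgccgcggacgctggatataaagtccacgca
H2-D1: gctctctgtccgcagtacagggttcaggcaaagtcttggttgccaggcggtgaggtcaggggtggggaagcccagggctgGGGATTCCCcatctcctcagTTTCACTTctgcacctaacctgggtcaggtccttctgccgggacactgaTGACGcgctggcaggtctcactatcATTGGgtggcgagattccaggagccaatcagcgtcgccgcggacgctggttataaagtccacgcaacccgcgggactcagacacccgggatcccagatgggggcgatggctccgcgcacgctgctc
B2m: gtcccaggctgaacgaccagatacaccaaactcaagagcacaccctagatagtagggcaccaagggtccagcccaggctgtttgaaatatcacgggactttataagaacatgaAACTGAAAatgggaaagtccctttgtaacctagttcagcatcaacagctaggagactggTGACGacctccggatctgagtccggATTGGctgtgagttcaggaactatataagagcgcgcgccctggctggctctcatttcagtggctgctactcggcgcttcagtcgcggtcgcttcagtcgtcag
Tap1: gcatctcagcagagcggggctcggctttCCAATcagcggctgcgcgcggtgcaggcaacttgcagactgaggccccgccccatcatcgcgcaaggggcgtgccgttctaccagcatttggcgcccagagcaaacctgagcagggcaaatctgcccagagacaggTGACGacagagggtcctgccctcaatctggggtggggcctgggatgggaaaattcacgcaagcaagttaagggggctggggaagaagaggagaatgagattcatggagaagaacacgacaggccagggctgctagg
The windows lie at chr17:34000298-34000597 (H2-K1, minus strand), chr17:35262844-35263143 (H2-D1, plus strand), chr2:122147437-122147736 (B2m, plus strand) and chr17:34187306-34187605 (Tap1, plus strand).

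The κB letters were found in H2-K1 at -110 and in H2-D1 at -170 from the start, and in 0.353% of all 32817 promoter windows. The interferon regulatory factor letters followed at -90 and -150, and in B2m they stood at -137. They occur in 23.9% of all windows. TGACG and ATTGG at a distance of 20 bases stood at -41 in H2-K1, -101 in H2-D1 and -78 in B2m, and in 0.0945% of all windows. That spacing, and the length of the κB letters, were chosen after these sequences were seen. A looser κB pattern, GGG and CC with 5 bases of any kind between them, stood in H2-K1, H2-D1, B2m, Tap1 and Psmb9, and in 50.8% of all windows. H2-K1 has another RefSeq window with another start, in which the κB, interferon regulatory factor and TGACG letters stood at -124, -104 and -55. From the κB letters to the Y box the H2-K1 and H2-D1 windows were of the same length, and 88 of 99 bases were identical. The windows of Tapbp, Psmb8, Tap1 and Psmb9 held none of GGGATTCCC, AANNGAAA, and TGACG and ATTGG at a distance of 20 bases. The letters TTCNNNGAA of a STAT site, found in 8.29% of all windows, stood in Psmb8 at -97 and in no other window of the 7 genes. The Tap1 and Psmb9 windows share 275 bases, since the genes start 226 bases apart on opposite strands. A match of letters is a description of the window and no measured binding site.

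Nlrc5 (ENSMUSG00000074151, chr8:94434356-94527272) codes for the transactivator that drives class I genes and is itself induced by interferon-γ. At day 5 it had 35.6, 43.8 and 73.3 CPM as lowest, median and highest value in CARD14E138A ears and 29.7, 32.6 and 46.2 CPM in Wt ears. The groups overlapped through Wt library 6, with 2 CARD14E138A libraries above all Wt libraries. Nlrc5 rose by 0.54 ± 0.17 (edgeR adjusted p = 0.0121). Without CARD14E138A library 2 this became 0.38 ± 0.16 and did not pass (edgeR adjusted p = 0.0634). At 1 month it lay at 44.5, 55.3 and 63.6 CPM in CARD14E138A and 32.8, 52.6 and 63.7 CPM in Wt ears, 0.10 ± 0.16 apart on the log2 scale (edgeR adjusted p = 0.665).

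Among 16 listed regulators of class I transcription, 11 rose and 1 fell in CARD14E138A ears at day 5, beside 20.7% and 20.2% of all genes. At 1 month 8 rose and none fell, beside 25.5% and 21.5% of all genes. The single fall, at day 5, was in Rfxank, a subunit of the RFX complex (-0.30 ± 0.11, edgeR adjusted p = 0.0267). Irf1, an interferon-induced activator of class I and immunoproteasome genes, averaged 53.8 ± 14.1 CPM in CARD14E138A and 16.1 ± 2.78 CPM in Wt ears at day 5, which is 1.74 ± 0.17 on the log2 scale (edgeR adjusted p = 3.84e-08). Nfkb1, a subunit of NF-κB, rose by 0.92 ± 0.09 and Irf9, a transcription factor of interferon signalling, by 0.82 ± 0.10 at day 5. At 1 month the smallest adjusted p were those of Ciita, the class II counterpart of Nlrc5 (1.89 ± 0.16), Nfkb1 (1.04 ± 0.09), Irf8 (2.00 ± 0.23) and Irf1 (0.89 ± 0.17). In the interaction of genotype and time, 5 of the 16 were called lower and 1 higher, beside 4.09% and 4.68% of all genes. The difference between genotypes was smaller at 1 month than at day 5 for Irf1 (interaction -0.85 ± 0.23, edgeR adjusted p = 0.0226). So it was for Irf9 (-0.74 ± 0.14, adjusted p = 0.0013), which stood at 0.08 ± 0.10 at 1 month (adjusted p = 0.546). The 1 regulator with a larger difference was Ciita (0.82 ± 0.22, adjusted p = 0.0222).

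The transporter and loading genes rose at day 5 and did not pass at 1 month. Tap1 (ENSMUSG00000037321, chr17:34187553-34197225), which with Tap2 forms the peptide pump of the endoplasmic reticulum, had 61.6, 107, 69.5, 87.7, 59.9 and 68.2 CPM in CARD14E138A and 33.1, 33.1, 49.6, 36.9, 54.1 and 46.0 CPM in Wt ears at day 5. The groups did not overlap. Tap1 rose by 0.84 ± 0.18 (edgeR adjusted p = 0.000709), the largest rise among the 9 genes after the immunoproteasome subunits. At 1 month it lay at 40.8, 59.6 and 78.7 CPM in CARD14E138A and 37.8, 54.8 and 61.8 CPM in Wt ears (0.13 ± 0.18, edgeR adjusted p = 0.596).

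Tap2 (ENSMUSG00000024339, chr17:34203527-34216321) had 46.0, 62.3, 52.0, 57.7, 36.4 and 45.5 CPM in CARD14E138A and 29.4, 30.1, 37.3, 30.9, 39.7 and 32.5 CPM in Wt ears at day 5. Only CARD14E138A library 5 lay within the Wt range. The rise was 0.59 ± 0.15 (edgeR adjusted p = 0.00358), and at 1 month Tap2 lay at 30.8, 40.2 and 56.5 CPM in CARD14E138A and 29.7, 38.9 and 45.9 CPM in Wt ears (0.09 ± 0.15, adjusted p = 0.655). Tapbp (ENSMUSG00000024308, chr17:33915899-33929292), which codes for tapasin, had 171, 198 and 209 CPM as lowest, median and highest value in CARD14E138A and 126, 132 and 148 CPM in Wt ears at day 5. The libraries of each group lay close together, with no overlap of the groups, and Tapbp rose by 0.52 ± 0.15 (edgeR adjusted p = 0.00808). At 1 month Tapbp averaged 143 ± 44.6 CPM in CARD14E138A and 140 ± 23.4 CPM in Wt ears (0.04 ± 0.15, edgeR adjusted p = 0.865). Of the transcript windows of Tapbp and Tap2, 18.6% and 8.27% also occurred in annotated neighbouring or overlapping genes.

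At day 5 the immunoproteasome subunits changed most among the 9 genes. Psmb8 (ENSMUSG00000024338, chr17:34197721-34201454), which replaces the standard subunit Psmb5, had 37.4, 58.5, 39.2, 56.7, 34.4 and 42.5 CPM in CARD14E138A and 12.3, 11.6, 19.5, 12.2, 16.8 and 14.7 CPM in Wt ears at day 5. Every CARD14E138A library was well above every Wt library. Psmb8 rose by 1.63 ± 0.23 (edgeR adjusted p = 7.99e-06), a 3.09-fold difference. At 1 month it had 91.5, 58.2, 32.5, 41.9, 37.7 and 58.0 CPM in CARD14E138A and 13.7, 24.8, 25.7, 26.4, 34.5 and 20.8 CPM in Wt ears. It rose by 1.13 ± 0.23 (edgeR adjusted p = 0.000261), and 1 CARD14E138A library, number 3, lay below the highest Wt library. Of the transcript windows of Psmb8, 9.97% also occurred in Gm20496, which overlaps it over 498 exon bases.

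Psmb9 (ENSMUSG00000096727, chr17:34181987-34187764), which replaces Psmb6, had 15.3, 26.8, 16.6, 21.8, 14.2 and 16.1 CPM in CARD14E138A and 4.92, 6.04, 9.55, 5.19, 8.88 and 7.42 CPM in Wt ears at day 5, again without overlap. The rise was 1.40 ± 0.23 (edgeR adjusted p = 4.21e-05). At 1 month Psmb9 had 27.3, 18.2, 12.2, 13.5, 12.4 and 17.9 CPM in CARD14E138A and 5.94, 10.8, 12, 12.1, 14.2 and 11.9 CPM in Wt ears. It passed at 0.60 ± 0.23 (edgeR adjusted p = 0.0319), but not when any 1 of CARD14E138A libraries 1, 2 or 6 or Wt libraries 1 or 2 was left out, the lowest value being 0.41 ± 0.21 (adjusted p = 0.122). Psmb9 and Tap1 overlap over 212 exon bases on opposite strands, and no source used here states whether the counting used strand.

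Psmb10, the remaining catalytic immunoproteasome subunit, averaged 32.2 ± 6.27 CPM in CARD14E138A and 11.5 ± 1.07 CPM in Wt ears at day 5 (1.49 ± 0.23, edgeR adjusted p = 2.10e-05) and 25.7 ± 11.2 CPM in CARD14E138A and 12.8 ± 4.11 CPM in Wt ears at 1 month (1.00 ± 0.23, adjusted p = 0.000909). Psme2, a subunit of the PA28 activator, rose by 1.14 ± 0.15 at day 5 and by 0.88 ± 0.15 at 1 month. Its partner Psme1 rose by 0.49 ± 0.15 at day 5 (adjusted p = 0.00951) and stood at 0.27 ± 0.14 at 1 month (adjusted p = 0.129). Pomp, the assembly factor of new proteasomes, rose by 0.56 ± 0.11 and 0.35 ± 0.11 at day 5 and 1 month. Of the 14 constitutive subunits, 9 rose at day 5 and 8 at 1 month, beside 20.7% and 25.5% of all genes, with medians of 0.44 and 0.35. Psmb5, Psmb6 and Psmb7, the subunits that are exchanged, were not among them (0.37 ± 0.21, 0.28 ± 0.20 and 0.25 ± 0.14 at day 5).

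The RNA of each immunoproteasome subunit was set against that of the standard subunit that it replaces, as a ratio of counts per kilobase within a library. Neither protein nor assembled proteasomes were measured. In whole ear a change within cells and a change in the cells present cannot be told apart in these ratios. At day 5 there were 20.1, 27.8 and 34.0 Psmb8 transcripts per 100 Psmb5 transcripts as lowest, median and highest value in CARD14E138A ears, against 9.28, 10.9 and 14.3 in Wt ears. For Psmb9 per 100 Psmb6 these were 6.99, 9.01 and 13.3 in CARD14E138A and 3.09, 4.26 and 5.62 in Wt ears. For Psmb10 per 100 Psmb7 they were 16.6, 21.2 and 26.9 in CARD14E138A and 7.93, 9.17 and 9.90 in Wt ears. In each pair all 6 CARD14E138A libraries exceeded all 6 Wt libraries. The geometric means of the ratios differed 2.40-fold, 2.20-fold and 2.33-fold (exact two-sided permutation test, p = 0.00216 each, the smallest that 6 against 6 libraries allow, 0.0026 adjusted over the 6 ratio tests).

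At 1 month the ratio of Psmb8 to Psmb5 was 21.1, 27.2 and 35.1 per 100 in CARD14E138A and 13.4, 16.4 and 17.7 in Wt ears, a 1.67-fold difference. Psmb10 per 100 Psmb7 stood at 12.7, 14.4 and 19.3 in CARD14E138A and 6.82, 8.80 and 10.8 in Wt ears, a 1.71-fold difference. These groups again did not overlap (exact permutation p = 0.00216 each, adjusted 0.0026). Psmb9 per 100 Psmb6 was 6.15, 8.42 and 9.42 in CARD14E138A and 4.68, 5.69 and 8.15 in Wt ears, with 4 CARD14E138A libraries above all Wt libraries (1.33-fold, exact permutation p = 0.0195, adjusted 0.0195). Within the libraries of positive and negative GC correlation the log2 differences of Psmb8 over Psmb5 were 0.58 and 0.94, of Psmb9 over Psmb6 0.26 and 0.54, and of Psmb10 over Psmb7 0.82 and 0.83, so all 6 were above 0. The exact test cannot go below p = 0.0571 for the first kind (3 against 4 libraries) and 0.2 for the second (3 against 2).

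**Figure D3:**
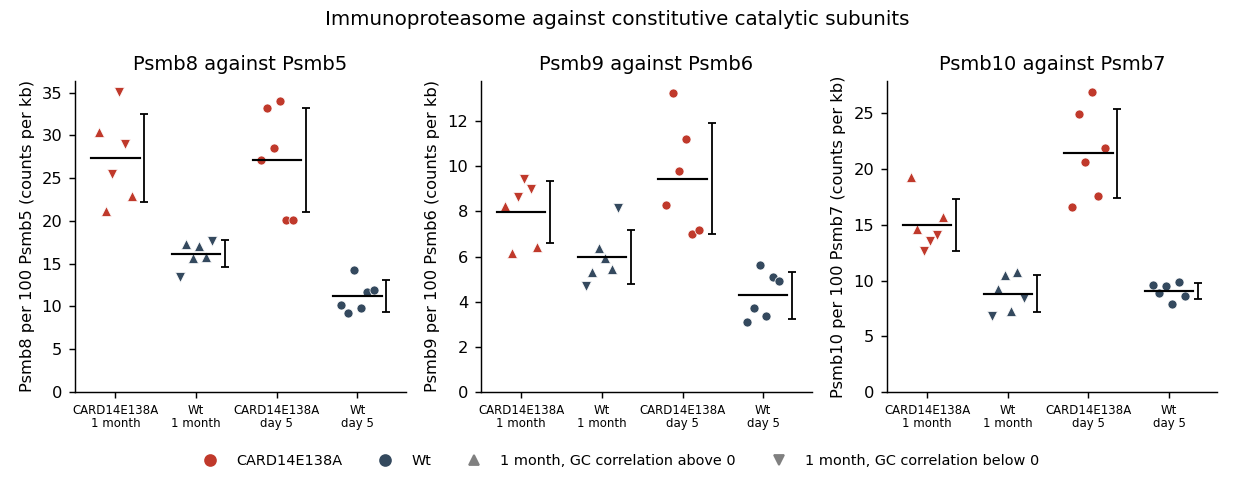
Immunoproteasome subunit per 100 of the standard subunit it replaces, from counts per kilobase, in every library, with CARD14E138A left of Wt at each time and the y axes starting at 0. Points, lines and bars are as in the plot of gene levels. All CARD14E138A libraries lie above all Wt libraries except for Psmb9 per 100 Psmb6 at 1 month, where the ranges are 6.15 to 9.42 and 4.68 to 8.15.

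Whether the genotype difference itself changed between the times was tested as an interaction. None of the 9 genes passed it in edgeR, where 4.68% of all genes were called higher and 4.09% lower. At unadjusted p below 0.05 there were 4, all lower, and DESeq2 called none, beside 4.51% of its genes higher and 4.90% lower. Those 4 were Tap1 (-0.71 ± 0.26, edgeR adjusted p = 0.0902), Psmb9 (-0.80 ± 0.32, adjusted p = 0.140), Tap2 (-0.49 ± 0.22, adjusted p = 0.188) and Tapbp (-0.48 ± 0.21, adjusted p = 0.194), each with a smaller difference at 1 month. Tap1 and Psmb9 passed without CARD14E138A library 1 of 1 month (-0.81 ± 0.25 and -0.99 ± 0.30, edgeR adjusted p = 0.0457 and 0.0384), and Tap1 and Tapbp without library 6 (-0.84 ± 0.26 and -0.67 ± 0.20, adjusted p = 0.0469 and 0.0346). With the GC correlation of each library as a covariate, Tap1 (-0.67 ± 0.19, edgeR adjusted p = 0.0190), Tap2 (-0.46 ± 0.15, adjusted p = 0.0437) and Tapbp (-0.45 ± 0.11, adjusted p = 0.00659) passed, beside 7.29% of all genes called lower in that fit. The interactions of the heavy chains were smaller than their SEs, with 0.06 ± 0.25 for H2-D1 and -0.08 ± 0.25 for H2-K1.

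Over time within a genotype, H2-K1 was higher at 1 month than at day 5 in both. It averaged 625 ± 189 CPM in CARD14E138A ears at 1 month and 383 ± 67.8 CPM at day 5 (0.71 ± 0.18, edgeR adjusted p = 0.00610), and 478 ± 94.0 CPM in Wt ears at 1 month and 276 ± 44.4 CPM at day 5 (0.79 ± 0.18, adjusted p = 0.00718). In CARD14E138A ears 2 of the 9 genes rose with time, H2-K1 and H2-D1 (0.59 ± 0.18, adjusted p = 0.0194), beside 11.2% of all genes, and Tapbp fell (-0.44 ± 0.15, adjusted p = 0.0442), beside 8.23%. The fall of Tapbp was lost without any 1 of 9 libraries, all but CARD14E138A 5 of day 5 and 1 and 6 of 1 month (-0.46 to -0.33), and the rise of H2-D1 without CARD14E138A library 1 of 1 month (0.45 ± 0.17, adjusted p = 0.0715). In Wt ears 3 rose with time, beside 6.28% of all genes, and none fell, beside 2.81%, also at unadjusted p below 0.05 and in DESeq2 (2.98% of its genes). The 3 were H2-K1, Nlrc5 (0.58 ± 0.17, edgeR adjusted p = 0.0294) and Psmb8 (0.74 ± 0.23, adjusted p = 0.0447). The call of Nlrc5 was lost without any 1 of Wt libraries 1, 2, 4 and 5 of day 5 and 3, 4 and 6 of 1 month (0.51 to 0.58), and that of Psmb8 without any 1 of 1, 2, 4, 5 and 6 of day 5 and 2, 3, 4 and 5 of 1 month (0.62 to 0.79). H2-D1 and Psmb9 passed in Wt ears without library 3 of day 5 (0.63 ± 0.19 and 0.82 ± 0.24) or library 1 of 1 month (0.64 ± 0.18 and 0.83 ± 0.22). Time and the kind of library cannot be fully told apart, since day 5 libraries had weaker GC correlations.

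Levels of most of these genes at 1 month went with the kind of library. In CARD14E138A ears 7 of the 9 genes were higher in all 3 libraries with a GC correlation above 0 than in all 3 with one below 0, beside 33.6% of all genes tested, for example H2-D1 with a mean of 1079 CPM above 0 and 636 CPM below 0, and Psmb8 with 69.2 CPM above 0 and 37.4 CPM below 0. Nlrc5 was lower in the libraries above 0, with 49.8 CPM against 60.0 CPM, beside 28% of all genes, and B2m, which has the lowest GC content of the 9 at 41.2%, overlapped. In Wt ears 4 of the 9 were higher in all 4 libraries above 0 than in both below 0, beside 20.8% of all genes, and none was lower in all of them, beside 22.7%. The GC content of the other 8 genes was 52.4 to 58.4%, against a median of 50.3% for all genes. What part this had in the spread of the 1-month values was not tested.

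Compared within a kind, all 3 CARD14E138A libraries stood above all Wt libraries for H2-K1, H2-D1, Psmb8 and Psmb9 in both kinds, and also for Tap1 and Tap2 among the libraries above 0. The same held for 25.9% of all genes tested in the libraries above 0 and for 33.2% in those below 0. H2-D1 differed by 0.76 ± 0.15 in the libraries above 0 (edgeR adjusted p = 0.000392) and by 0.58 ± 0.17 in those below 0 (adjusted p = 0.0104). Psmb8 differed by 1.302 ± 0.22 (adjusted p = 7.93e-05) and 1.11 ± 0.26 (adjusted p = 0.00233). H2-K1 passed above 0 (0.53 ± 0.17, adjusted p = 0.0127) and not below 0 (0.33 ± 0.20, adjusted p = 0.191), as did Psmb9 (0.77 ± 0.24, adjusted p = 0.0126, and 0.51 ± 0.32, adjusted p = 0.207). The libraries above 0 thus gave 4 of the 9 genes, beside 27.3% of all genes called higher, and those below 0 gave 2, beside 22%. Tap1, Tap2 and Tapbp were at 0.31, 0.28 and 0.22 above 0 and at -0.02, -0.09 and -0.09 below 0, and none of these passed.

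**Figure D4:**
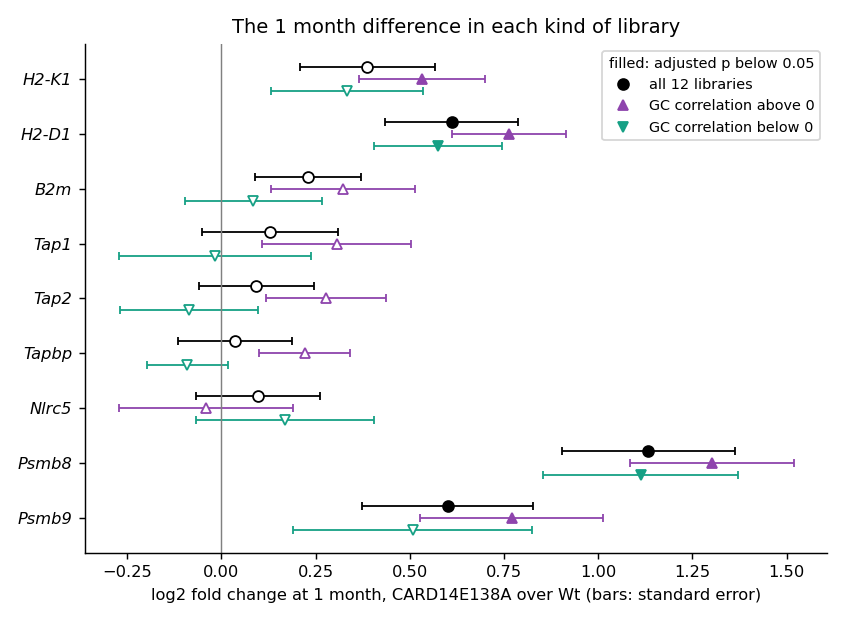
Log2 fold change at 1 month, CARD14E138A over Wt, with the standard error, for all 12 libraries (circles), the libraries with a GC correlation above 0 (triangles up, 3 against 4) and those below 0 (triangles down, 3 against 2). H2-D1 and Psmb8 have an adjusted p below 0.05 (filled) in all 3 fits, while Tap1, Tap2 and Tapbp lie near 0 or below it in the libraries below 0.

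A list of 9 other genes held factors of peptide loading and trimming together with Hspa5 and the translocon subunits Sec61a1, Sec61b and Sec61g, which act on proteins of the endoplasmic reticulum in general. Of these, 7 rose in CARD14E138A ears at day 5 and 7 at 1 month, 6 of them at both times, beside 20.7% and 25.5% of all genes. The medians of the list were 0.54 at day 5 and 0.66 at 1 month. Calr, the lectin chaperone of the loading complex, averaged 616 ± 141 CPM in CARD14E138A and 341 ± 11.6 CPM in Wt ears at day 5 (0.85 ± 0.16, edgeR adjusted p = 0.000163) and 814 ± 211 CPM in CARD14E138A and 404 ± 53.0 CPM in Wt ears at 1 month (1.01 ± 0.16). Pdia3, the disulfide isomerase bound to tapasin, rose by 0.54 ± 0.15 at day 5 and 0.65 ± 0.15 at 1 month. Erap1, the aminopeptidase that trims peptides, rose by 0.91 ± 0.24 at day 5 and 0.72 ± 0.24 at 1 month. Hspa5, a general chaperone of the endoplasmic reticulum, rose by 0.76 ± 0.13 and 0.67 ± 0.13. Tapbpl, the tapasin-related editor, rose at day 5 (0.34 ± 0.13, adjusted p = 0.0341) and was at -0.12 ± 0.13 at 1 month (adjusted p = 0.452). Canx, a lectin chaperone of new heavy chains, was at 0.28 ± 0.20 at day 5 (edgeR adjusted p = 0.272) and rose at 1 month (0.48 ± 0.20, adjusted p = 0.0475).

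**Figure D5:**
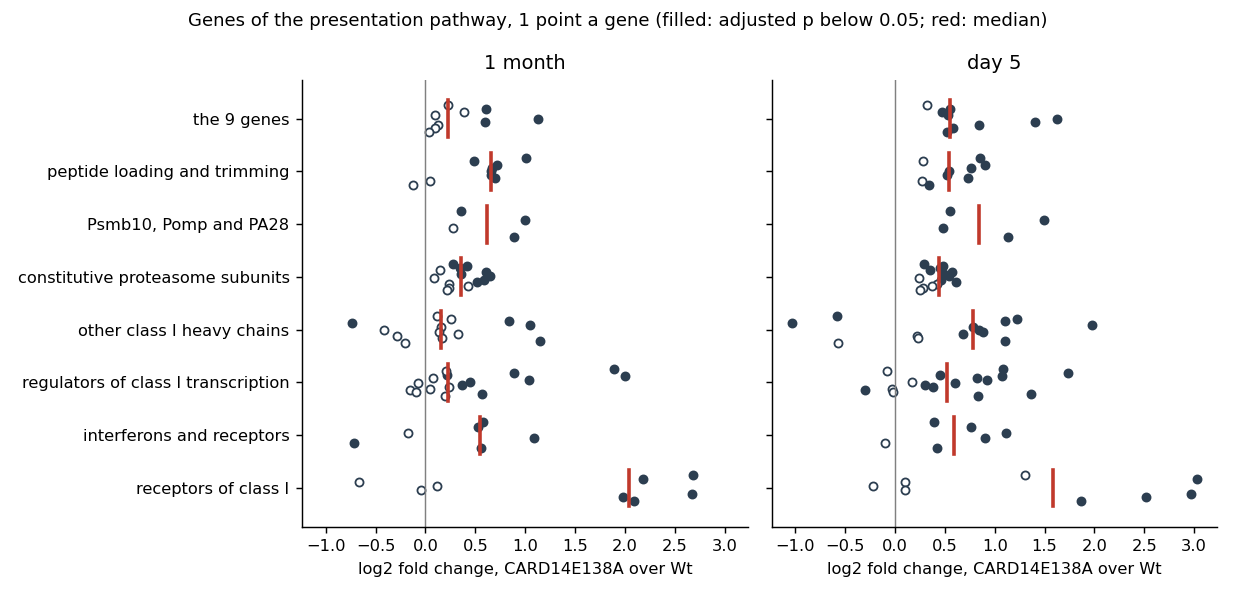
Log2 fold change of CARD14E138A over Wt for every tested gene of 8 lists of the presentation pathway, at 1 month (left) and day 5 (right). A point is 1 gene, filled where the adjusted p is below 0.05, and the red line is the median of the list. The median of the 9 genes is 0.23 at 1 month and 0.55 at day 5, whereas that of the list headed peptide loading and trimming is 0.66 at 1 month and 0.54 at day 5.

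Of 17 other class I and class I-like heavy chains, 13 passed the filter on low counts. At day 5, 8 rose and 2 fell, beside 20.7% and 20.2% of all genes tested. At 1 month 3 rose and 1 fell, beside 25.5% and 21.5% of all genes. The non-classical genes H2-M3, which presents formylated peptides, and H2-T24 rose at both times, H2-M3 by 1.11 ± 0.23 and 0.83 ± 0.22 and H2-T24 by 1.11 ± 0.24 and 1.15 ± 0.24 at day 5 and 1 month. H2-Q10, whose product is secreted, averaged 6.87 ± 3.11 CPM in CARD14E138A and 1.74 ± 0.50 CPM in Wt ears at day 5 (1.98 ± 0.33, edgeR adjusted p = 5.34e-05), and 12.5% of its transcript windows are shared with other class I genes. H2-Q4 rose at day 5 (0.78 ± 0.18, adjusted p = 0.00144) and was at 0.16 ± 0.18 at 1 month (adjusted p = 0.504), with 20.7% of windows shared. H2-M5 fell at both times (-1.03 ± 0.29 at day 5 and -0.74 ± 0.27 at 1 month). Also lower at day 5 was Cd1d1, which presents lipids (-0.59 ± 0.15, adjusted p = 0.00372).

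The listed interferon genes, Ifng, Ifnb1, Ifna4, Ifnk and Ifne, gave few or no counts, and other interferon genes were not looked at. Ifng, the gene of interferon-γ, had 14 counts over the 6 CARD14E138A libraries of day 5 and 0 over the 6 Wt libraries, where a count of 0 allows up to 0.0304 CPM over the group, and 14 counts in CARD14E138A and 1 in Wt ears at 1 month. Ifnb1, Ifna4, Ifnk and Ifne had no count in any library. Ifngr1, the ligand-binding chain of the interferon-γ receptor, averaged 206 ± 13.6 CPM in CARD14E138A and 95.3 ± 11.1 CPM in Wt ears at day 5 (1.11 ± 0.10, edgeR adjusted p = 2.01e-08), and its difference at 1 month was -0.17 ± 0.10 (interaction -1.28 ± 0.15, adjusted p = 4.13e-06). Ifngr2, its signalling chain, rose by 0.90 ± 0.13 at day 5 and 1.09 ± 0.13 at 1 month. Of 13 genes listed as leukocyte receptors of class I or related to such receptors, 8 passed the filter. Of these, 4 rose at day 5 and 5 at 1 month, beside 20.7% and 25.5% of all genes. They were Pirb, Pilra, Lilrb4a and Klra2, receptors of myeloid and other leukocytes (1.86 ± 0.28, 2.52 ± 0.30, 2.97 ± 0.50 and 3.03 ± 0.59 at day 5). Pilra and Lilrb4a are known for ligands other than class I. At 1 month they were joined by Cd8a, the coreceptor of class I-restricted T cells (1.96 ± 0.45 CPM in CARD14E138A and 0.304 ± 0.236 CPM in Wt ears). Of 6 tested markers of T and natural killer cells, Cd8a among them, 2 rose and 3 fell at 1 month.

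Leukocytes are known to express class I genes, Psmb8 and Psmb9 strongly. Beside the counts of markers given below, 20.7% of all genes tested were called higher and 20.2% lower at day 5. At 1 month these shares were 25.5% and 21.5%. Of 6 markers of all leukocytes 5 rose at day 5 and 6 at 1 month, and their summed level was 212 to 542 CPM in CARD14E138A and 140 to 172 CPM in Wt ears at day 5, and 328 to 551 CPM in CARD14E138A and 126 to 219 CPM in Wt ears at 1 month. Of 7 markers of monocytes and macrophages 6 rose at day 5 and 7 at 1 month, with sums of 515 to 1336 CPM in CARD14E138A and 377 to 480 CPM in Wt ears at day 5. The 5 neutrophil markers summed to 49.96 to 281 CPM in CARD14E138A and 4.83 to 7.11 CPM in Wt ears at day 5, where Ly6g had no count in Wt ears. Markers of class II antigen-presenting cells summed to 614 to 1272 CPM in CARD14E138A and 882 to 1241 CPM in Wt ears at day 5, with 1 of 6 higher, and to 1910 to 4502 CPM in CARD14E138A and 942 to 1844 CPM in Wt ears at 1 month, with 6 of 6 higher. T and natural killer cell markers summed to 14.8 to 24.8 CPM in CARD14E138A and 28.3 to 33.8 CPM in Wt ears at day 5, with 2 of 6 tested lower. At 1 month they summed to 22.7 to 40.9 CPM in CARD14E138A and 32.65 to 42.5 CPM in Wt ears. There 2 of the 6 were higher, Cd8a (2.69 ± 0.42) and Cd4 (2.19 ± 0.22). The 3 lower ones were Cd3e (-2.09 ± 0.21), Cd3g (-1.93 ± 0.23) and Nkg7 (-2.01 ± 0.27). B cell markers reached at most 4.32 CPM in any library. Marker sums of other tissues moved as well. At day 5 fibroblast markers summed to 5000 to 9684 CPM in CARD14E138A and 13200 to 18240 CPM in Wt ears. Of these 6 markers 1 was higher and 3 were lower. Cartilage markers summed to 131 to 238 CPM in CARD14E138A and 366 to 492 CPM in Wt ears, with 5 of 5 lower. Skeletal muscle markers summed to 961 to 1828 CPM in CARD14E138A and 2377 to 3359 CPM in Wt ears, with 3 of 5 lower. Keratinocyte markers summed to 27500 to 37230 CPM in CARD14E138A and 22800 to 31580 CPM in Wt ears, with 2 of 6 higher. At 1 month fibroblast sums were 11500 to 32180 CPM in CARD14E138A and 8240 to 13260 CPM in Wt ears, and cartilage sums 159 to 309 CPM in CARD14E138A and 292 to 637 CPM in Wt ears. Muscle sums were 408 to 2983 CPM in CARD14E138A and 3350 to 13170 CPM in Wt ears, and keratinocyte sums 30660 to 49620 CPM in CARD14E138A and 16300 to 28510 CPM in Wt ears, both without overlap. Single markers did not all go with their sum. At 1 month 5 of 6 fibroblast markers were higher and 1 lower, and 3 of 6 keratinocyte markers were higher and 1 lower. Of 5 cartilage markers 3 were lower, and of 5 muscle markers 5 were lower. Ptprc, the leukocyte marker CD45, followed the kind of library at 1 month, with 8.90 to 27.1 CPM in the 3 CARD14E138A libraries above 0 and 76.6 to 93.8 CPM in the 3 below 0. The sum of the 6 leukocyte markers, Ptprc among them, did not divide in this way. It was 551, 342 and 416 CPM in CARD14E138A libraries 1, 2 and 6, above 0. In libraries 3, 4 and 5, below 0, it was 328, 377 and 391 CPM. The part of any of these cells in the differences of the 9 genes was not tested.

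The libraries that led the 9 genes were few. Among CARD14E138A ears of day 5, library 2 was highest for 8 of the 9 genes and library 5 lowest for 7, and among CARD14E138A ears of 1 month library 1 was highest for 7. Their leukocyte marker sums were 489, 382 and 551 CPM. Among the CARD14E138A libraries of day 5 these sums ran from 212 CPM in library 1 to 542 CPM in library 6. There library 2 did not have the highest sum, nor library 5 the lowest. How often these libraries were highest or lowest over all genes was not counted.

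Over the 24 libraries, the pattern of log2 CPM around its mean was closest to the mean of the 9 genes in Nudt19 (root mean square difference 0.15), Mrpl16 (0.16), Bzw2, Gm49342 and Slc25a3 (0.17 each), out of 12072 protein-coding genes with a mean of at least 5 CPM. Each of these rose in CARD14E138A ears at both times, for example Nudt19 by 0.68 ± 0.13 at day 5 and 0.53 ± 0.13 at 1 month. Since they were picked for nearness to that mean in the same libraries, their rise is no separate result. The 9 genes lay 0.19 (Tap1) to 0.45 (Psmb8) from their own mean. Among themselves the closest pairs were Tap2 with Tapbp (0.17), H2-K1 with H2-D1 (0.17) and Tap1 with Tap2 (0.17), while Psmb8 and Psmb9 were each other's nearest member (0.25). The nearest single genes included Ifi35, an interferon-induced gene, for Tap1 (0.21), Psme1 for Tap2 (0.16), Shisa5 for Tapbp (0.13), Atp5g3 for H2-D1 (0.14), Uqcrfs1 for H2-K1 (0.19), Bccip for B2m (0.18), Vegfa for Nlrc5 (0.19), Tmem176a for Psmb8 (0.25) and Ctsz for Psmb9 (0.29). These distances describe the 24 libraries, kinds of library included.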

How the data were processed

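RNA of 24 whole-ear samples in 4 groups of 6 was measured. The authors deposited 1 table of expected counts, from RSEM per the file headers, for 51912 Ensembl genes. The submitters' processing notes name RSEM 1.3.0, STAR 2.5.2, DESeq2 1.14.1 and GRCm38. Values were rounded before use (6.71% were not whole). Symbols came from GENCODE M21, which held 51719 of the identifiers. In R 4.3.3, edgeR 4.0.16 fitted 1 coefficient per group to all 24 libraries (filterByExpr, TMM, robust quasi-likelihood F test, Benjamini-Hochberg over 17287 genes, calls below 0.05), after a test on simulated data. CPM are TMM-scaled, and lengths are those of the longest APPRIS principal transcript. Ratios had exact permutation tests over libraries, and like patterns used log2 CPM with a prior count of 2.

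The genes and lists were chosen with earlier results of these data known. Named were all 9 genes, up to 4 genes of each list with the smallest adjusted p in a genotype comparison, the 5 nearest genes and the nearest of each. A regulator that this rule names is not reported here. Rfxank, Tapbpl, Psmb5, Psmb6, Psmb7, Cd1d1, Ptprc, Cd4, Cd3e, Cd3g, Nkg7 and the interactions of single regulators were named after their values were seen. Replicate numbers did not pair the samples (correlations of -0.73 to 0.26). The smallest chi-square per degree of freedom between libraries of a group was 4.86, so no pair differed by counting noise alone. That does not show whether the libraries came from separate RNA samples or animals. Alternatives were RLE factors, total counts, no filter, a filter of 1 CPM in 6 libraries, a replicate block, only the libraries compared, DESeq2 1.42.0, summed class I counts, each library left out and, chosen after seeing the data, the GC settings.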

Additional observations from a re-analysis of the deposited data

Results flagged for a closer look

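Among 48 groups of 6 values (9 genes and 3 ratios in 4 groups), 2 held a library farther from the others than Dixon's 95% critical value allows, and chance flags about 1 in 20 groups. Tap1 stood at 37.8 CPM in Wt library 1 of 1 month, below the other 5, with a gap of 0.67 of the range. That library had a GC correlation of -0.48. Nlrc5 stood at 46.2 CPM in Wt library 6 of day 5, above the other 5, with a gap of 0.73 of the range.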

How the results depend on the processing

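At day 5 between 6 and 9 of the 9 genes were called higher when any 1 library was left out, and at 1 month 2 to 4. At day 5 it was 7 without a filter and 9 with only the libraries compared. The replicate block, in which same-numbered samples share a term, gave 7 genes at day 5 and 2 at 1 month, but the numbers did not pair the samples. The 1-month libraries of both GC kinds, and their number in each kind, limit what can be resolved there.

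For CARD14E138A against Wt at 1 month, 3 genes were called higher, and 1 was with only the libraries compared. Psmb9 was not called with total counts, without a filter, under the block or with only the libraries compared, nor H2-D1 with only the libraries compared (adjusted p = 0.0507). For the interaction, none was called lower, against 1 with the libraries below 0, 3 with the GC covariate, 2 with a term for the kind, and 0 to 2 without 1 library. Over all genes, 809 were called higher and 707 lower, against 1391 and 1260 with the GC covariate, 1255 and 1097 with the term, and 463 lower under the block.

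For CARD14E138A ears over time, 2 of the 9 genes were called higher, against 1 with only the libraries compared, 0 with the libraries below 0 and 1 to 2 without 1 library. The single call lower became 0 with RLE factors, without a filter, under the block, with only the libraries compared and with the libraries above 0, 3 with the libraries below 0 or the GC covariate, and 0 to 1 without 1 library. Over all genes, 1937 higher and 1423 lower became 1264 and 845 with only the libraries compared and 5277 and 4661 with the libraries above 0, and the lower calls 3073 with the libraries below 0 and 2690 with the covariate.

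For Wt ears over time, 3 of the 9 genes became 5 with RLE factors, total counts, the filter of 1 CPM, only the libraries compared or DESeq2, 6 with the libraries above 0, 1 under the block, 0 with the libraries below 0, and 1 to 5 without 1 library. Over all genes, 1086 higher became 1755 with only the libraries compared, 1880 with DESeq2, 3838 and 271 with the libraries above and below 0, and 651 to 2001 without 1 library. The 486 lower became 266 without a filter, 288 under the block, 3440 and 170 with the libraries above and below 0, 1033 with the covariate, and 272 to 1025 without 1 library.

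The summed class I counts over time (0.57 in CARD14E138A and 0.64 in Wt ears) were 0.92 and 0.18 in CARD14E138A and 0.82 and 0.31 in Wt ears with the libraries above and below 0, and 0.42 in Wt ears with the covariate. Of the ratios at 1 month, Psmb9 over Psmb6 was 0.42 under the replicate block (exact permutation p = 0.0938), and the values within the kinds of library, 0.58, 0.94, 0.26, 0.54, 0.82 and 0.83, come from designs too small to pass.

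Some estimates near 0 changed sign, none of them called. At 1 month these were Tap1 (-0.018), Tap2 (-0.086) and Tapbp (-0.091) with the libraries below 0, Tapbp with total counts (-0.055) and the filter of 1 CPM (-0.01), and Nlrc5 (-0.041) with the libraries above 0. Without 1 library Tap2 ranged over -0.015 to 0.17, Tapbp over -0.14 to 0.12 and Nlrc5 over -0.0024 to 0.17. In the interaction these were H2-K1 (0.079) and B2m (0.022) with the libraries above 0, while without 1 library H2-D1 ranged over -0.080 to 0.16 and B2m over -0.21 to 0.0059. In CARD14E138A ears over time these were B2m (-0.0084) and Psmb8 (-0.24) with the libraries below 0 and Tap2 (0.045) and Psmb9 (0.23) with those above 0, and without 1 library B2m (-0.038 to 0.15) and Psmb9 (-0.32 to 0.033). In Wt ears it was Tapbp, at -0.23 with the libraries below 0, -0.16 with the covariate and -0.013 to 0.15 without 1 library. The cause of none of these changes was tested.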
